A study of Mus musculus with 12 samples.

Results

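The genes described here are 9 genes of the extracellular matrix other than collagens: the small leucine-rich proteoglycans Prelp, Dcn, Lum and Bgn, the elastic fibre genes Eln and Fbn1, and the secreted matrix-associated genes Postn, Nov and C1qtnf3. They were taken by name from a table of 26742 genes. They had been chosen from earlier results of these same libraries, by their levels and their differences between inhibitor and DMSO, so their own differences are given as descriptions and not as tests. The RNA came from male mouse embryonic stem (ES) cells with a 129 or a B6J genetic background, grown in serum with leukaemia inhibitory factor. Cells received 1 µM of the MEK inhibitor PD 0325901 or the solvent DMSO each day until day 5, which made 4 groups of 3 libraries: 129 with the inhibitor, 129 with DMSO, B6J with the inhibitor and B6J with DMSO. MEK is the kinase that activates ERK. The labels give 1 genotype per background, name no clone, and do not state that the 3 libraries in each group are separate cultures. The p-values therefore reflect library-to-library spread, which may be technical.

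Small leucine-rich proteoglycans are secreted proteins, most of which carry glycosaminoglycan chains, that bind collagen fibrils and set their diameter and spacing. Elastic fibres consist of cross-linked elastin laid on microfibrils of fibrillin, and matricellular proteins such as periostin connect cells to the matrix without forming its main scaffold. These proteins are made mainly by fibroblasts and other mesenchymal cells.

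All 9 genes are protein-coding and lie on 7 chromosomes of GRCm38 (1-based positions, GENCODE M21). Prelp (ENSMUSG00000041577) is at chr1:133910304-133921414 on the minus strand, Bgn (ENSMUSG00000031375) at chrX:73483602-73495933 on the plus strand, Eln (ENSMUSG00000029675) at chr5:134702593-134747323 on the minus strand and Fbn1 (ENSMUSG00000027204) at chr2:125300594-125507993 on the minus strand. Dcn (ENSMUSG00000019929) at chr10:97479609-97518143 and Lum (ENSMUSG00000036446) at chr10:97565128-97572703 are plus-strand neighbours, 47.0 kb apart. Postn (ENSMUSG00000027750) is at chr3:54361109-54391037, C1qtnf3 (ENSMUSG00000058914) at chr15:10952332-10980150 and Nov (ENSMUSG00000037362, Ccn3 in GENCODE) at chr15:54745702-54754039, all on the plus strand. Antisense genes overlap exons of Prelp (Gm15851, over 350 bases), Eln (Gm30003, over 267 bases) and Fbn1 (Gm9913, over 2442 bases). The strand setting of the counting is not given in the sources used here, so reads of these pairs may have been shared.

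The sequences before the start site of 4 genes are shown because these genes stand at both ends of the range described below: Prelp and C1qtnf3 differed most between inhibitor and DMSO, and Bgn and Postn were among the 3 that differed least. They are from RefSeq, build GRCm38.p6, 5′ to 3′ on the strand of the gene, and cover chr1:133921415-133921651 for Prelp (237 bases, minus strand), chr15:10952082-10952331 for C1qtnf3, chrX:73483351-73483600 for Bgn and chr3:54360857-54361106 for Postn (250 bases each, plus strand). Capitals mark matches, on either strand, to any of 4 motifs, which are spelled out after the sequences.
Prelp: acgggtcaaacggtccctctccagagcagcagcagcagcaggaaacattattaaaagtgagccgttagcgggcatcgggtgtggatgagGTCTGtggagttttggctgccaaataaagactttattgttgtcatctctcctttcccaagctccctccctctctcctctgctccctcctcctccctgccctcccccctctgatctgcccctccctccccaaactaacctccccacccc
C1qtnf3: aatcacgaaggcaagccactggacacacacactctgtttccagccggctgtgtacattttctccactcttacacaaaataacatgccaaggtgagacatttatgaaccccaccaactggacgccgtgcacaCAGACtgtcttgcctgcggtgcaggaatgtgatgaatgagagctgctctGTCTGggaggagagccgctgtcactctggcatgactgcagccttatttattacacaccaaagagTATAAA
Bgn: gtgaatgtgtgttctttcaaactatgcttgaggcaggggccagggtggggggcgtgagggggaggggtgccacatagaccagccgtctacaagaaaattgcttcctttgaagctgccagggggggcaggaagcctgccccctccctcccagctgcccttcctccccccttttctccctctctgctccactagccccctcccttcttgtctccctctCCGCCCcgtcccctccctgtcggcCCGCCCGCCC
Postn: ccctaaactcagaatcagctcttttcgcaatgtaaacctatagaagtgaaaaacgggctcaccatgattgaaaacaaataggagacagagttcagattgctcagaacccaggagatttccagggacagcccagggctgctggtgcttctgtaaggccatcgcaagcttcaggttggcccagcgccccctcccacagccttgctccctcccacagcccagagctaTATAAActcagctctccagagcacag
The C1qtnf3 and Postn sequences each hold 1 match to the TATA box, searched as TATAAA, which was found in 12.4% of 32851 windows of this kind. The C1qtnf3 match ends its window, directly before the annotated gene start, while in Postn further bases follow the match. The search took no account of position. Bgn holds 3 matches to the GC box, searched as GGGCGG, 2 of which overlap, and the motif occurred in 32.7% of windows. The SMAD element, searched as CAGAC, matched once in Prelp and at 2 places in C1qtnf3, and occurred in 42.2% of windows. Postn had another window, chr3:54359017-54359266, not shown here, with 1 match to the SMAD element and 0 to the TATA box. Which motifs Postn holds thus depends on the window. The AP-1 motif, searched as TGANTCA and present in 6.75% of windows, matched none of the 6 windows found for 5 of the 9 genes. The window of Fbn1, chr2:125506439-125506688, lies inside the gene as GENCODE places it, with 0 bases before the gene start. No window was found for Dcn, Lum, Eln or Nov.

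The libraries held 65564142 to 82701438 reads in 129 with the inhibitor, 62634533 to 73031809 in 129 with DMSO, 81310810 to 96341637 in B6J with the inhibitor and 74164171 to 82505523 in B6J with DMSO. The ERK targets Egr1, Dusp6 and Spry4 all fell with the inhibitor in both backgrounds. Library 1 stood apart from the other 2 in 129 with the inhibitor, in 129 with DMSO and in B6J with DMSO. In B6J with the inhibitor, libraries 1 and 3 differed most and library 2 lay between them, nearer to library 1. The 17 fibroblast markers summed to 6345 to 9912 CPM (counts scaled to a common library size by TMM) in 129 with the inhibitor and 2971 to 5528 CPM in 129 with DMSO, and to 5796 to 9577 CPM in B6J with the inhibitor and 3911 to 4581 CPM in B6J with DMSO. No fibroblast marker was at 0 in any group, and the ES cell markers summed to 4831 to 5105 CPM with the inhibitor and 2914 to 4654 CPM with DMSO over both backgrounds. Summed markers of several other cell types were higher with the inhibitor too, without overlap. The 10 cartilage and bone markers summed to 290 to 302 CPM with the inhibitor and 111 to 209 CPM with DMSO in 129, and to 351 to 359 CPM with the inhibitor and 197 to 234 CPM with DMSO in B6J. Alpl, which ES cells also express, made up 246 CPM of the mean sum of 298 CPM in 129 with the inhibitor, and 1 of the 10 was at 0 in 129 with DMSO. The 5 endothelial markers summed to 121 to 156 CPM with the inhibitor and 69.5 to 79.4 CPM with DMSO in 129, and to 117 to 139 CPM with the inhibitor and 65.4 to 82.1 CPM with DMSO in B6J. The 5 macrophage markers were likewise higher but summed to 23.0 CPM or less in every library. The 9 primitive endoderm markers summed to 2261 to 3266 CPM with the inhibitor and 1458 to 1589 CPM with DMSO in B6J; in 129 they overlapped, and smooth muscle markers overlapped between inhibitor and DMSO in both backgrounds. Calls of single markers (edgeR adjusted p under 0.05) were mixed. Of 8 tested cartilage and bone markers, 3 were called higher and 1 lower in 129, and 3 and 0 in B6J. Of 5 endothelial markers these were 2 and 1 in 129, and 2 and 0 in B6J. Of 9 primitive endoderm markers they were 0 and 5, and 0 and 0. Of 5 macrophage markers, 1 was called higher and 0 lower in each background. Of 16627 tested genes, 2899 were higher and 3031 lower in 129, and 2423 and 2743 in B6J. The part of these cell types in the results was not tested. The labels name no cells other than ES cells.

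All 9 genes had higher mean levels with the MEK inhibitor than with DMSO in both backgrounds, but by very different amounts. Prelp, C1qtnf3, Eln and Nov were 14.8 to 25.3 times as high in 129 and 10.6 to 23.3 times as high in B6J (ratios of group means). Lum and Dcn were 7.96 and 4.58 times as high in 129 and 8.83 and 3.55 times as high in B6J. Bgn, Fbn1 and Postn were 1.70 to 1.97 times as high in 129 and 1.62 to 1.83 times as high in B6J. In bulk RNA, fewer cells of a type and less RNA per cell cannot be told apart.

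**Figure D1:**
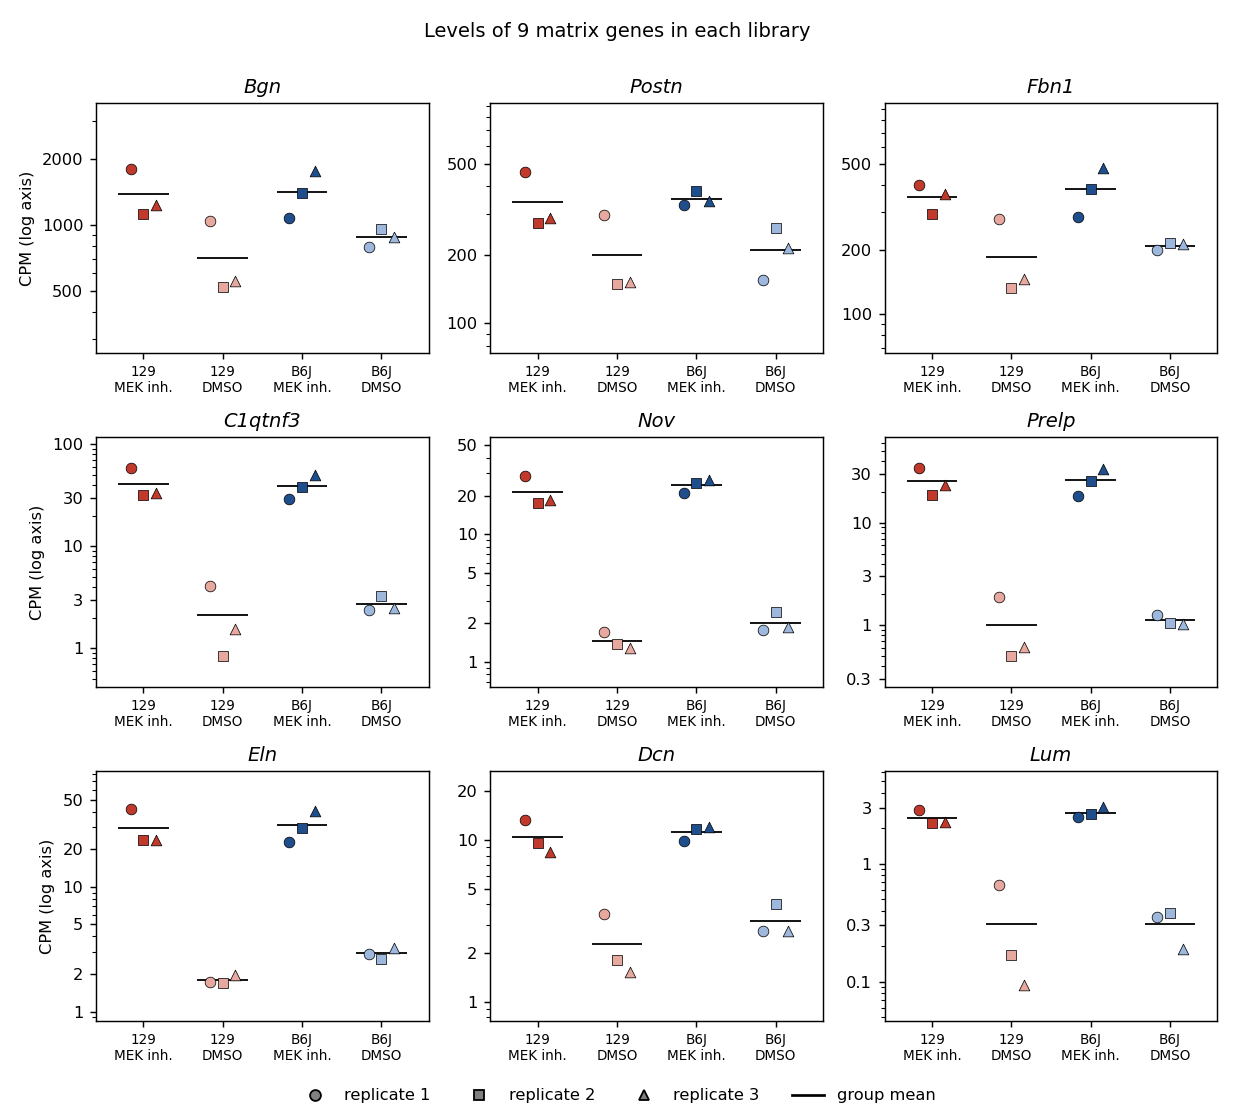
CPM of the 9 genes in each of the 12 libraries, on log axes, 1 panel per gene. Points are libraries and bars are group means. Prelp lies at 18.4 CPM or more in all libraries with the inhibitor and at 1.89 CPM or less in all with DMSO, whereas the Postn libraries of 129 overlap.

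Prelp encodes a leucine-rich repeat protein that binds collagen and the heparan sulphate of basement membranes. It had 34.0, 18.9 and 23.2 CPM in libraries 1 to 3 of 129 with the inhibitor, against 1.89, 0.504 and 0.609 CPM with DMSO. In B6J it had 18.4, 25.8 and 33.6 CPM with the inhibitor, against 1.25, 1.06 and 1.04 CPM with DMSO. The groups did not overlap in either background, and library 1 was the highest of both 129 groups. The fitted log2 difference was 4.65 (SE 0.46) in 129 and 4.54 (SE 0.45) in B6J.

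Dcn encodes decorin, which binds collagen fibrils and TGF-beta. Its levels were 13.3, 9.58 and 8.48 CPM in 129 with the inhibitor and 3.50, 1.82 and 1.53 CPM in 129 with DMSO. Levels of Dcn in B6J were 9.79, 11.7 and 11.9 CPM with the inhibitor and 2.72, 3.99 and 2.73 CPM with DMSO. No library with the inhibitor reached down to a DMSO library, and the log2 difference was 2.19 (SE 0.30) in 129 and 1.83 (SE 0.29) in B6J. Lum encodes lumican, a keratan sulphate proteoglycan that spaces collagen fibrils in the cornea. It was the least abundant of the 9, with 2.84, 2.20 and 2.28 CPM in 129 with the inhibitor and 0.659, 0.168 and 0.0936 CPM with DMSO, the last of these being a count of 6. In B6J, Lum had 2.48, 2.65 and 3.05 CPM with the inhibitor and 0.352, 0.385 and 0.189 CPM with DMSO. The groups did not overlap, and the log2 difference was 2.97 (SE 0.51) in 129 and 3.13 (SE 0.51) in B6J, the widest errors of the 9 genes. All 12 counts of Lum were even, as were 70.1% to 73.4% of counts from 1 to 20 in the libraries (cause not tested), so Lum may rest on fewer fragments than its counts state. With all counts halved, its log2 differences were 2.95 in 129 and 3.12 in B6J, and no call of the 9 changed.

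Bgn encodes biglycan, a proteoglycan with chondroitin or dermatan sulphate chains, and was the most abundant of the 9. It had 1810, 1118 and 1239 CPM in 129 with the inhibitor and 1040, 519 and 554 CPM with DMSO. B6J libraries held 1081, 1402 and 1770 CPM of Bgn with the inhibitor and 790, 957 and 884 CPM with DMSO. The groups lay next to each other without overlap: the lowest 129 library with the inhibitor was just above DMSO library 1. The log2 difference was 0.98 (SE 0.27) in 129 and 0.69 (SE 0.27) in B6J, where it did not pass the threshold.

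Eln encodes tropoelastin, the soluble precursor of elastin. It had 42.1, 23.6 and 23.9 CPM in 129 with the inhibitor and 1.73, 1.69 and 1.98 CPM with DMSO. In B6J it had 23.0, 29.9 and 40.4 CPM with the inhibitor and 2.88, 2.65 and 3.25 CPM with DMSO. Eln was the only 1 of the 9 that was not highest in DMSO library 1 of 129. Its log2 difference was 4.05 (SE 0.28) in 129 and 3.41 (SE 0.26) in B6J.

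Fbn1 encodes fibrillin 1, which forms the microfibrils of elastic fibres and binds latent TGF-beta. Its levels were 399, 294 and 365 CPM in 129 with the inhibitor and 277, 133 and 146 CPM with DMSO, and in B6J 283, 382 and 480 CPM with the inhibitor and 199, 215 and 213 CPM with DMSO. The groups did not overlap, but the DMSO library 1 of 129 came close to the inhibitor libraries. The log2 difference was 0.93 (SE 0.26) in 129 and 0.87 (SE 0.26) in B6J. Eln and Fbn1, which serve the same fibre, thus differed in response by more than 2 log2 units in each background.

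Postn encodes periostin, a matricellular protein of the periosteum and of healing tissue. It had 460, 274 and 288 CPM in 129 with the inhibitor and 299, 149 and 152 CPM with DMSO. These groups overlapped, because DMSO library 1 exceeded inhibitor libraries 2 and 3. In B6J, Postn had 330, 378 and 343 CPM with the inhibitor and 154, 261 and 214 CPM with DMSO, with no overlap. Its log2 difference was 0.77 (SE 0.29) in 129 and 0.74 (SE 0.29) in B6J, neither past the threshold. With replicate numbers as a block within background, the 129 difference was 0.81 and passed. That brought the count there to 9 of 9, where that fit called 19.3% of tested genes higher. No label states that same-numbered libraries are pairs, and their deviations set only library 1 of 129 apart. Without DMSO library 1 of 129 the Postn difference in 129 was 1.18, and without DMSO library 1 of B6J 0.77, both past the threshold.

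Nov encodes CCN3, a matricellular protein of the CCN family that inhibits growth in several cell types. It had 28.8, 17.5 and 18.5 CPM in 129 with the inhibitor and 1.73, 1.37 and 1.28 CPM with DMSO. In B6J its libraries held 20.97, 25.3 and 26.8 CPM with the inhibitor and 1.77, 2.44 and 1.86 CPM with DMSO. The log2 difference was 3.88 (SE 0.23) in 129 and 3.59 (SE 0.22) in B6J, the smallest errors of the 9, and no libraries overlapped. C1qtnf3 encodes a secreted protein with a collagen-like stretch and a C1q domain, made in cartilage and fat. It had 58.6, 32.01 and 33.2 CPM in 129 with the inhibitor and 4.03, 0.840 and 1.53 CPM with DMSO, and in B6J 29.2, 38.6 and 50.4 CPM with the inhibitor and 2.39, 3.26 and 2.51 CPM with DMSO. Here too the groups were separate, and the log2 difference was 4.27 (SE 0.49) in 129 and 3.85 (SE 0.48) in B6J.

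The threshold for a call was 0.05 for p-values of edgeR's quasi-likelihood test, adjusted by the Benjamini-Hochberg method over 16627 tested genes, which include all 9. In 129, 8 of the 9 were called higher and 0 lower, where 17.4% of all tested genes were called higher; Postn was the exception. In B6J, 7 of the 9 were called higher and 0 lower, where 14.6% of tested genes were; the exceptions were Bgn and Postn. Libraries did not overlap for 8 of 9 genes in 129 and for 9 of 9 in B6J, where 23% and 24.3% of tested genes were higher without overlap. The median log2 difference of the 9 was 2.97 in 129 and 3.13 in B6J, against -0.01 and 0.00 over all tested genes. Because the genes were chosen with these differences known, the counts describe the choice. The calls of Bgn and Fbn1 in 129 were lost without inhibitor library 1 (log2 differences of 0.75 and 0.84), without DMSO library 2 (0.80 and 0.74) or without DMSO library 3 (0.83 and 0.78), and when B6J libraries were left out of the fit (0.97 and 0.92). In B6J the call of Fbn1 was lost without DMSO library 1, 2 or 3 of B6J (0.83, 0.89 and 0.88) or inhibitor library 2 or 3 (0.88 and 0.68). Bgn and Postn passed in B6J without DMSO library 1 of 129, which enters the shared spread (0.69 and 0.74), and Bgn also without inhibitor library 1 of B6J (0.88). Both passed in B6J when 129 libraries were left out of the fit (0.69 and 0.74), where 2900 of 15931 tested genes were called higher. DESeq2 called both in B6J too (0.71 and 0.75). Of 24 alternatives in B6J, 6 called Bgn and 5 called Postn.

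**Figure D2:**
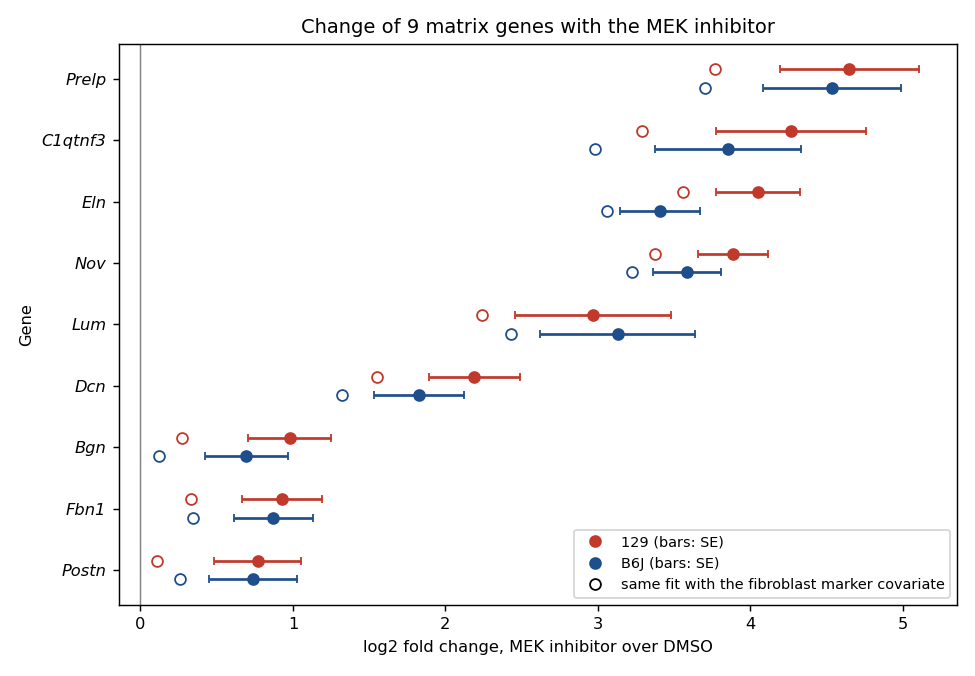
Log2 difference, MEK inhibitor over DMSO, for each of the 9 genes in 129 and in B6J, with bars of 1 SE. Filled points are from the fit with group means and open points from the fit with the fibroblast covariate. Prelp stands at 4.65 in 129 and Postn at 0.77, and with the covariate Bgn, Fbn1 and Postn lie within 0.35 of 0.

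Relative to the fibroblast markers, 3 of the genes were no higher or barely higher with the inhibitor. Per 1000 CPM of the summed markers, Bgn stood at 181 in 129 with the inhibitor and 182 with DMSO, and at 185 in B6J with the inhibitor and 207 with DMSO. Fbn1 stood at 47.0 and 47.6 in 129 with the inhibitor and with DMSO, and at 49.7 and 49.5 in B6J with the inhibitor and with DMSO. Postn stood at 44.2 with the inhibitor and 51.4 with DMSO in 129, and at 47.4 with the inhibitor and 49.1 with DMSO in B6J. The ratios of inhibitor to DMSO for these 3 genes ran from 0.860 to 1.01. Postn in 129 was lower with the inhibitor without overlap, at 43.1 to 46.4 against 50.03 to 54.1 with DMSO. Bgn in B6J was too, at 184 to 187 against 202 to 209.8 with DMSO. The other libraries of these genes overlapped. The share of all tested genes without overlap on this scale was not computed, so no conclusion is drawn from these separations.

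The other 6 genes stayed higher with the inhibitor on this scale. Prelp stood at 2.97 to 3.47 per 1000 CPM in 129 with the inhibitor and 0.170 to 0.343 with DMSO, a ratio of means of 13.9, and at 3.18 to 3.51 in B6J with the inhibitor and 0.231 to 0.319 with DMSO, a ratio of 12.6. C1qtnf3 had ratios of 10.5 in 129 and 8.0 in B6J, Eln of 7.51 and 5.80, and Nov of 7.05 and 6.81. Lum had ratios of 4.72 in 129 and 4.99 in B6J, and Dcn of 2.35 and 2.02. With the mean log2 CPM of the markers as a covariate, log2 differences in 129 were 3.77 for Prelp, 3.56 for Eln, 3.38 for Nov, 3.29 for C1qtnf3, 2.24 for Lum and 1.55 for Dcn. In B6J they were 3.70 for Prelp, 3.22 for Nov, 3.06 for Eln, 2.98 for C1qtnf3, 2.43 for Lum and 1.32 for Dcn. Those of Bgn, Fbn1 and Postn were 0.28, 0.33 and 0.11 in 129 and 0.12, 0.34 and 0.26 in B6J. That fit called 7 of the 9 higher in each background, where it called 17.3% of tested genes higher in 129 and 16.6% in B6J. Beside the 6, these were Bgn in 129 and Fbn1 in B6J, so that the call of Fbn1 in 129 was lost. The part of the marker sum in these differences was not tested beyond these values. Col1a1 and Col1a2 made up 2176 and 1794 CPM of the mean sum of 7650 CPM in 129 with the inhibitor. These 2 collagen genes thus weigh heavily in the sum. The covariate instead weighs all 17 markers alike, Pdgfra included. In DMSO library 1 of 129, Pdgfra was 22.4 times the mean of the other libraries of its group. A covariate without Pdgfra was not tested.

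**Figure D3:**
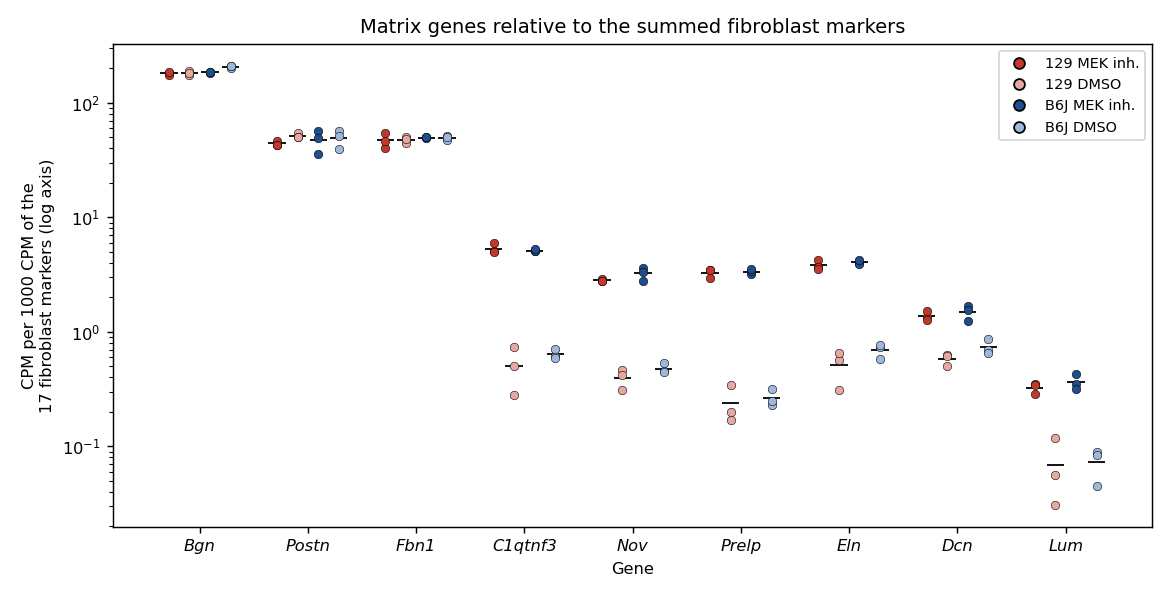
Level of the 9 genes per 1000 CPM of the 17 summed fibroblast markers, by library, on log axes. Points are libraries and bars are group means. The means of Bgn, Fbn1 and Postn have inhibitor to DMSO ratios of 0.860 to 1.01, while Prelp averages 3.29 in 129 with the inhibitor and 0.238 with DMSO.

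Among the fibroblast markers themselves, 11 of 17 rose and 1, Pdgfra, fell in 129 (median log2 difference 0.92), and 9 rose and 0 fell in B6J (median 0.79). Over all tested genes, 17.4% were called higher in 129 and 14.6% in B6J. On the log2 scale Col1a1 rose by 1.46 in 129 and 1.10 in B6J, and Col3a1 by 1.49 and 1.10, both fibrillar collagen genes (edgeR adjusted p = 0.00208 and 0.0107 for Col1a1, and 0.000878 and 0.00575 for Col3a1). The surface marker Thy1 had log2 differences of 0.68 and 0.30, neither past the threshold, and Twist2 of 0.05 and -0.46. Pdgfra had 143 CPM in DMSO library 1 of 129 and at most 6.9 CPM in the other 2, and primitive endoderm markers, which include Pdgfra, summed to 9222 CPM in that library and 1132 and 1152 CPM in the others. Without that library the log2 difference of Pdgfra was 0.0092.

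Levels between genes were compared per kilobase of exon. With the inhibitor the order was the same in both backgrounds: Bgn, Postn, Fbn1, C1qtnf3, Nov, Prelp, Eln, Dcn and Lum. In 129 with the inhibitor these levels ran from 228 ± 60.6 CPM per kb for Bgn and 39.2 ± 11.9 for Postn to 0.997 ± 0.143 for Lum, and in B6J with the inhibitor from 232 ± 56.5 for Bgn to 1.11 ± 0.119 for Lum (SD, n = 3). Neighbours whose libraries overlapped there were Postn with Fbn1 and Nov with Prelp. In 129 with DMSO, Bgn (115 ± 47.8), Postn (23.0 ± 9.85) and Fbn1 (15.3 ± 6.60) stood above C1qtnf3 at 0.835 ± 0.657 CPM per kb, with Postn and Fbn1 overlapping, and from C1qtnf3 down to Lum each neighbour overlapped the next. In B6J with DMSO the first 5 places were the same and did not overlap one another, while Prelp (0.308 ± 0.0316) stood below Eln (0.361 ± 0.0376), with overlap. Prelp thus ranked 6th with the inhibitor, and 7th in 129 and 8th in B6J with DMSO.

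B6J and 129 cells had similar levels with the inhibitor, and less so with DMSO. The median log2 difference of the 9, B6J minus 129, was 0.06 with the inhibitor and 0.32 with DMSO. With the inhibitor, log2 differences, B6J minus 129, ran from -0.07 for C1qtnf3 to 0.17 for Nov, and libraries of the 2 backgrounds overlapped for all 9 genes, where 18.9% of tested genes were higher in B6J without overlap. None of the 9 was called, against 18.4% of all tested genes. Of the 9, 0 had an unadjusted edgeR p under 0.05. Among 16627 tested genes, 2452 that were higher in B6J and 2568 that were lower did. DESeq2, which called 20% of its genes, and limma-voom, which called 18.8%, also called 0 of the 9. With DMSO, differences ran from 0.00 for Lum to 0.70 (SE 0.26) for Eln, followed by Nov at 0.47 (SE 0.22) and Dcn at 0.46 (SE 0.29). Eln averaged 2.93 ± 0.305 CPM in B6J with DMSO and 1.80 ± 0.157 CPM in 129 with DMSO, and Nov 2.03 ± 0.363 CPM in B6J and 1.46 ± 0.237 CPM in 129 (SD, n = 3). For Eln and Nov the libraries did not overlap (2 of 9 genes, where 19% of tested genes were higher without overlap).

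In DMSO edgeR called 0 of the 9 between backgrounds, where it called 20.9% of tested genes in either direction. Of the 9, 1 had an unadjusted edgeR p under 0.05. Among 16627 tested genes, 2743 that were higher in B6J and 2781 that were lower did. DESeq2 called 1 (Eln), where it called 22.7% of its genes, and limma-voom 0, where it called 20%. With the fibroblast covariate 1 was called (Bgn), where 30.2% of tested genes were, and 1 (Eln) with the inhibitor libraries left out, where 14.2% were. The edgeR count rested on DMSO library 1 of 129. Compared with the mean of the other 2 libraries, that library held 5.03 times as much Lum, 3.41 times as much C1qtnf3, 3.40 times as much Prelp, 2.09 times as much Dcn and 1.94 to 1.99 times as much Bgn, Postn and Fbn1, but 1.30 times as much Nov and 0.941 times as much Eln; its fibroblast marker sum was 1.84 times as high. Without it 5 genes were called higher in B6J (Dcn, Lum, Bgn, Fbn1 and C1qtnf3, where 12% of tested genes were), with log2 differences of 0.59 for Fbn1 to 1.22 for Lum. Without both 129 libraries numbered 1, all but Postn were called higher, where 15.2% of tested genes were.

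The response to the inhibitor was not called different between backgrounds for any of the 9, where 1.48% of tested genes were. Of the 9, 0 had an unadjusted edgeR p under 0.05. Among 16627 tested genes, 1066 with a positive difference and 1059 with a negative one did. DESeq2 called 0 of the 9, where it called 4.72% of its genes, and limma-voom 0, where it called 0.98%. The difference of responses, B6J minus 129, ran from -0.64 (SE 0.35) for Eln to 0.16 (SE 0.70) for Lum. The 3 genes with the smallest responses had differences of -0.29 (SE 0.38) for Bgn, -0.06 (SE 0.36) for Fbn1 and -0.03 (SE 0.40) for Postn. With such errors, differences of these sizes were not detectable.

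Other genes of the same families were taken from 8 lists of matrix genes, 143 in all, of which 137 were tested. In 129, 47 rose and 22 fell (median 0.35), and in B6J 39 rose and 16 fell (median 0.34), counting calls. Over all 16627 tested genes, 2899 rose (17.4%) and 3031 fell in 129. In B6J, 2423 of them rose (14.6%) and 2743 fell. The counts of each list below stand beside these. Of the other small leucine-rich proteoglycans, 5 of 11 rose and 1 fell in 129 and 6 rose and 0 fell in B6J, with medians of 1.01 and 1.23. Fmod, the fibril-binding fibromodulin, averaged 23.5 ± 7.33 CPM in 129 with the inhibitor and 2.57 ± 2.04 CPM with DMSO (SD, n = 3), a log2 difference of 3.19 (edgeR adjusted p = 0.000604), and rose by 3.03 in B6J (edgeR adjusted p = 0.000856). Aspn (asporin) rose by 2.28 in 129 and 2.46 in B6J, Ogn (osteoglycin) by 2.32 and 2.02, and Podn (podocan) by 1.25 and 1.30 (edgeR adjusted p between 0.00275 and 0.00918).

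Neighbouring proteoglycan genes differed in level and, for Optc in 129, in direction. Prelp lies 2.31 kb from Optc, and Fmod lies 116 kb from Prelp on the other side. Optc, the opticin of the eye's vitreous, averaged 0.697 ± 0.260 CPM in 129 with the inhibitor and 1.29 ± 0.0114 CPM with DMSO (SD, n = 3), and fell by 0.89 on the log2 scale (edgeR adjusted p = 0.0280); in B6J it averaged 0.738 ± 0.106 CPM with the inhibitor and 0.426 ± 0.0994 CPM with DMSO, a log2 difference of 0.79 that did not pass (edgeR adjusted p = 0.0568). On chromosome 10, Kera lies 34.2 kb beyond Lum and Epyc 30.4 kb beyond Kera. Kera, a corneal proteoglycan, had 0 counts in all 12 libraries and Epyc 4 counts in all, while their neighbours Lum and Dcn had 1384 and 6407 counts.

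Of the 24 other elastic fibre and microfibril genes, 12 rose and 3 fell in 129 (median 0.68) and 7 rose and 2 fell in B6J (median 0.53). Fbln5, which helps to assemble elastin on microfibrils, averaged 576 ± 184 CPM in 129 with the inhibitor and 100.2 ± 65.6 CPM with DMSO (SD, n = 3), a rise of 2.52 (SE 0.40, edgeR adjusted p = 0.000554), and rose by 2.22 in B6J. Lox, the lysyl oxidase that cross-links elastin and collagen, rose by 1.73 in 129 and 1.61 in B6J (edgeR adjusted p = 0.00098 and 0.0017). Efemp1 rose by 1.51 and 1.36, the microfibril gene Mfap5 by 1.75 and 1.26, and Fbn2, the second fibrillin gene, by 1.34 and 1.27. Emilin3 fell by 1.70 in 129 and by 2.02 in B6J.

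The glycosaminoglycan chains of these proteoglycans are built by enzymes whose genes moved both ways: 4 of 24 rose and 7 fell in 129 (median 0.15), and 2 rose and 5 fell in B6J (median -0.01). Calls went both ways among all tested genes too, with 17.4% called higher in 129 and 14.6% in B6J. The sulphotransferase gene Chst3 rose by 1.77 in 129 and 2.01 in B6J, whereas Chst1 fell by 2.71 and 1.97 and Chst15 fell by 2.50 and 1.20 on the log2 scale. Of 22 large and cell surface proteoglycan genes, 4 rose and 4 fell in 129 and 7 rose and 4 fell in B6J; Cspg4 rose by 1.68 and 1.53 and the glypican gene Gpc4 by 1.05 and 1.00, and the neural proteoglycan gene Ncan fell by 1.30 and 0.83.

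Of 18 other matricellular and CCN genes, 7 rose and 2 fell in 129 and 7 rose and 1 fell in B6J. Wisp2, a CCN relative of Nov, rose by 2.59 in 129 and 2.41 in B6J, and Wisp1 by 1.04 and 1.02, whereas Cyr61, another CCN gene, fell by 0.84 in 129 and had a log2 difference of -0.32 in B6J that did not pass. Of 7 tested relatives of C1qtnf3, 4 rose in 129 and 3 in B6J and 0 fell; C1qtnf6 rose by 1.47 and 0.99. Of 18 matrix protease and inhibitor genes, 10 rose and 2 fell in 129 and 7 rose and 2 fell in B6J. The aggrecanase gene Adamts5 rose by 3.07 in 129 and 3.08 in B6J, and the collagenase gene Mmp13 by 3.03 and 2.39, while Mmp9, a gelatinase gene, fell by 1.50 and 2.86. Of 13 TGF-beta pathway genes, 1 (Smad7) rose and 3 fell in 129, and 0 rose and 2 fell in B6J. Skil, a repressor of SMAD proteins, fell by 1.49 in 129 and by 1.22 in B6J.

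**Figure D4:**
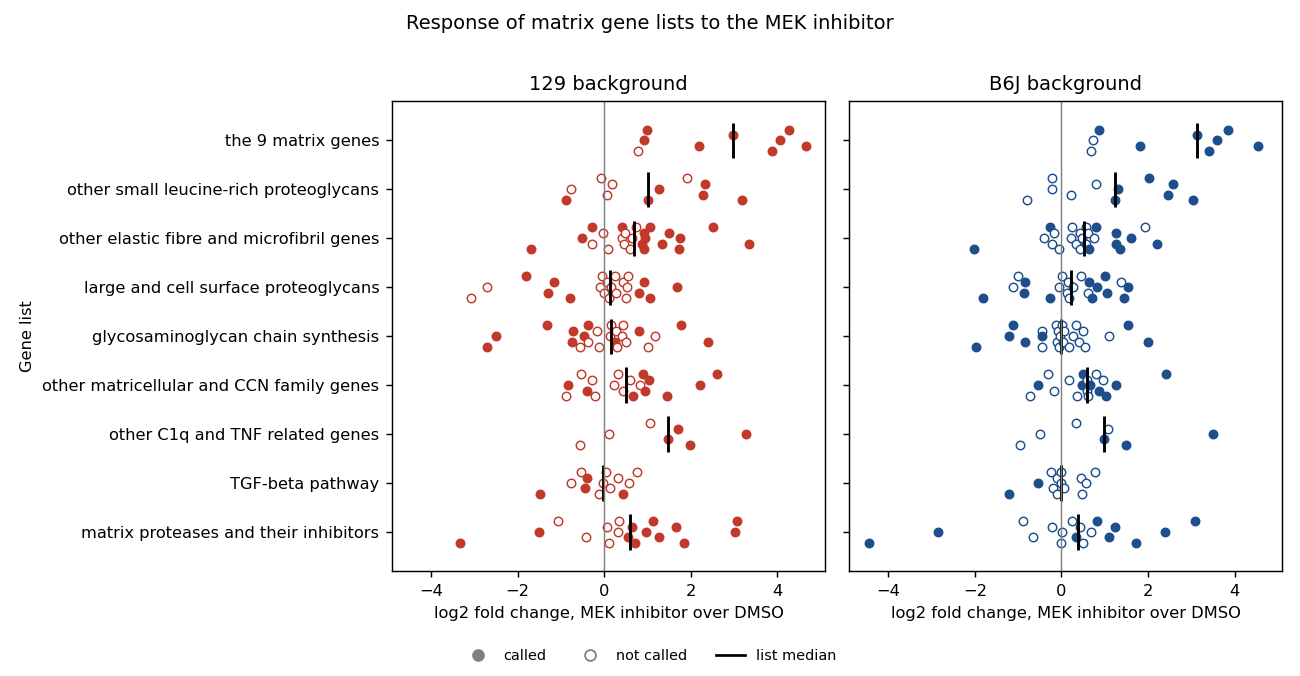
Log2 difference, MEK inhibitor over DMSO, of each tested gene in the 8 companion lists and of the 9 genes, in 129 and in B6J. Filled points were called, open points were not, and bars mark list medians. The medians run from -0.04 (TGF-beta pathway) to 1.47 (C1q and TNF related genes) in 129, against 2.97 for the 9 genes.

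Over the 12 libraries, the gene whose log2 CPM was most like the mean profile of the 9 was Fbln5 (Pearson r = 0.999 among 13131 candidates). It was followed by the collagen gene Col11a1, the collagen-binding integrin gene Itga11, Cd109, Sod3, Ephx1, Rhoj and Map3k7cl, the last at r = 0.995. Single genes were closest to different partners: Bgn to Col1a2 (r = 0.999), Fbn1 to Thbs1 (r = 0.993), Prelp and C1qtnf3 both to Col12a1 (r = 0.996 and 0.994), Eln to Cdo1 (r = 0.996), Dcn to Map3k7cl (r = 0.993), Nov to Aldh1a1 (r = 0.992), Lum to Irak2 (r = 0.988) and Postn to Cped1 (r = 0.973). Col12a1 had log2 differences of 2.24 in 129 and 2.17 in B6J, less than those of Prelp and C1qtnf3. The 12 libraries share 4 groups, and these values carry no test.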

How the data were processed

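RNA was measured in 12 libraries in 4 groups of 3, made with Trizol extraction and a stranded polyA kit, per the labels' protocols. The authors deposited 1 table of raw counts, whole numbers per gene, for 26742 genes. Per the submitters' processing notes, tools included HTSeq 0.6.1p1, STAR 2.7.10, DESeq and SAMtools, with GRCm38 and mm10 as builds; what each did is not stated there. The annotation, the strand setting and the handling of multi-mapped reads were not given in the sources used here.

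Groups came from the labelled genotype and treatment. The main test was the quasi-likelihood test of edgeR 4.0.16, run under R 4.3.3 (filterByExpr, min.count 10, min.total.count 15; TMM; 1 quasi-likelihood fit of 4 group means; 5 contrasts; Benjamini-Hochberg over 16627 genes, threshold 0.05). A fibroblast covariate fit adds the mean log2 CPM of 17 markers (prior count 2). Alternatives were DESeq2 1.42.0, limma-voom (limma 3.58.1), other scaling and filters, halved counts, a replicate block and leaving out libraries. The edgeR step was also run on counts simulated from these libraries with known changes. Halved counts were tried because most low counts were even, for a reason not given in the sources used here.

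The 9 genes, the gene lists and the motifs were chosen with earlier results of these data known. Named relatives are, per list and comparison, up to 4 called genes per direction with the largest change and at least 1 CPM in the higher group; Kera and Epyc were named for their position after their values were seen. Likeness was computed among tested genes averaging 1 CPM or more. Positions are from GENCODE M21, which held 26725 of the identifiers.

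Same-numbered libraries in 129 deviated together (correlations of deviations from group means of 0.44, 0.29 and 0.22). Libraries 2 and 3 of 129 did so across numbers as well (0.21 and 0.19). Library 1 had correlations of -0.27 to -0.38 with the libraries of other numbers. The values thus set only library 1 apart and do not show a pairing of libraries 2 and 3, and no label states one.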

Additional observations from a re-analysis of the deposited data

Results flagged for a closer look

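Of 137 tested relatives of the 9 genes, 4 were called different between backgrounds in their response to the inhibitor, where 1.48% of all tested genes were. The calls came from the test of the difference itself (B6J minus 129, edgeR's quasi-likelihood test), which called none of the 9.

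Gpc3, a glypican gene, averaged 104 ± 5.98 CPM with the inhibitor and 63.8 ± 6.17 CPM with DMSO in B6J, and 79.3 ± 8.0 CPM with the inhibitor and 136 ± 60.3 CPM with DMSO in 129 (SD, n = 3), a difference of 1.49 (adjusted p = 0.0475); DMSO library 1 of 129 held 206 CPM and the others 98.9 and 104 CPM, and the difference was 1.06 without it. Ltbp4, a gene of a latent TGF-beta binding protein, averaged 134 ± 7.39 CPM with the inhibitor and 160 ± 16.5 CPM with DMSO in B6J, and 159 ± 7.07 CPM with the inhibitor and 120.0 ± 8.44 CPM with DMSO in 129 (SD, n = 3), a difference of -0.66 (adjusted p = 0.0228). Smad3, a mediator of TGF-beta signals, averaged 31.3 ± 1.41 CPM with the inhibitor and 45.8 ± 1.81 CPM with DMSO in B6J, and 36.9 ± 1.59 CPM with the inhibitor and 35.9 ± 2.58 CPM with DMSO in 129 (SD, n = 3), a difference of -0.59 (adjusted p = 0.0233). Sparcl1, a matricellular gene, averaged 0.401 ± 0.0502 CPM with the inhibitor and 0.267 ± 0.0258 CPM with DMSO in B6J, and 1.03 ± 0.0503 CPM with the inhibitor and 0.223 ± 0.0501 CPM with DMSO in 129 (SD, n = 3), a difference of -1.62 (adjusted p = 0.0437). Each of the 4 calls was lost when some single libraries were left out, the one of Sparcl1 for each of the 12, and over all companion genes such calls numbered 0 to 7.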

How the results depend on the processing

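All 9 genes stayed higher with the inhibitor under all 24 alternatives in both backgrounds, and Prelp, Dcn, Lum, Eln, C1qtnf3 and Nov stayed called under each. Bgn was called in 20 of the 24 in 129 and 6 in B6J, Fbn1 in 19 and 19, and Postn in 6 and 5. Replicate block: same-numbered libraries deviated together in 129 only (B6J correlations -0.19, 0.09 and -0.17), and there the number set only library 1 apart. Within background the block called Bgn (0.67) and Postn (0.77) in B6J as well as Postn in 129, and changed no other call of the 9. Postn in 129 was also called by limma-voom, DESeq2 and without both 129 libraries numbered 1. The cause of these changes was not tested.

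Calls of the 9 between backgrounds in DMSO were 1 with the fibroblast covariate, where 30.2% of tested genes were called. They were 8 without both 129 libraries numbered 1, all higher in B6J, where 15.2% of tested genes were called higher. The 2 groups alone and DESeq2 each gave 1, where 14.2% and 22.7% of genes were called. For companion genes the calls were 55, 62 and 16 under the first 3 of these settings (25 in the main test). For all genes they were 2247 with the 2 groups alone (3468). Companion calls in the inhibitor were 26 with the covariate and 23 without both libraries (12), and 89 for the B6J response without both (55). Differences of responses gave 2 companion calls with the replicate block over both backgrounds, within background and with limma-voom, 11 with the covariate and DESeq2, and 8 without both (4); over all genes 156 with the block over both backgrounds, 163 with limma-voom, 814 with the covariate, 788 with DESeq2 and 608 without both (246).

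Leaving out 1 library in turn gave, in the responses of 129 and B6J, 6 to 9 and 6 to 9 calls of the 9, 57 to 91 and 43 to 74 companion genes, and 4590 to 6671 and 3743 to 6281 genes in all. Between backgrounds it gave 0 to 5 and 0 to 0 of the 9, 18 to 44 and 8 to 25 companion genes, and 2569 to 4056 and 2131 to 3915 genes in DMSO and in the inhibitor, and for the differences of responses 0 to 0, 0 to 7 and 73 to 586.

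Signs turned as follows. Lum between backgrounds in DMSO was 0.11 with the replicate block, 1.22 without both libraries and 0.38 with limma-voom; C1qtnf3 in the inhibitor was 0.027 with the replicate block and 0.27 without both; Postn in DMSO was -0.071 with the covariate. Differences of responses were -0.068 (replicate block within background), -0.94 (without both) and -0.22 (limma-voom) for Lum, and 0.013 for Fbn1 and 0.15 for Postn with the covariate. With the covariate Thy1 was -0.029 in 129 and -0.27 in B6J, and Twist2 -0.79 in 129. Leaving out 1 library, DMSO differences ran from -0.18 to 1.01 (Prelp), -0.41 to 1.22 (Lum), -0.017 to 0.59 (Fbn1), -0.12 to 0.48 (Postn) and -0.038 to 1.21 (C1qtnf3). In the inhibitor they ran from -0.21 to 0.30 (Prelp), -0.034 to 0.30 (Dcn), -0.17 to 0.26 (Bgn), -0.19 to 0.39 (Eln), -0.094 to 0.30 (Fbn1), -0.10 to 0.31 (Postn) and -0.29 to 0.27 (C1qtnf3). Differences of responses ran from -0.97 to 0.21 (Prelp), -1.06 to 0.57 (Lum), -0.47 to 0.13 (Fbn1) and -0.44 to 0.25 (Postn), and responses in 129 from -3.55 to 0.0092 (Pdgfra) and -0.33 to 0.42 (Twist2). Depth limits Lum most, whose counts in DMSO libraries were 6 to 48, all even, and may be up to 2 per fragment.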
